A study of Mus musculus with 2 samples.

Results

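The immunoglobulin heavy chain and kappa light chain loci were followed through chromatin of mouse Th2 cells, which are T cells and make no antibody. The loci were taken as fixed stretches of the mm9 genome, cut into 1-kb bins. The heavy chain window ran from 114450001 to 117250000 on chromosome 12 and gave 2800 bins. The kappa window ran from 67500001 to 70700000 on chromosome 6 and gave 3200 bins. Together these are 6000 bins, of which 4658 held at least 1 read, out of 2246042 bins with a read in the whole genome.

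The cells were CD4+CD62L+ splenocytes of C57BL/6 mice, stimulated through CD3 and CD28 for 5 days in 10 ng/ml IL-4 with 2 µg/ml of antibody to interferon gamma, and then rested for 3 days. Chromatin fixed in 0.4% formaldehyde was precipitated with 7 µg of either an antibody to acetylated histone H3 (H3KAc), which marks active genes and enhancers, or non-specific polyclonal rabbit IgG, which records the background. Each antibody gave 1 library. Whether both libraries came from the same culture is not given in the sources used here. There was no replicate, so no p-value was computed, and every interval below covers counting error between these libraries only.

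An antibody gene is assembled in developing B cells, where V, D and J segments of the heavy chain, or V and J segments of kappa, are cut and joined next to the constant genes. Acetylation of histone H3 and transcription of the unjoined segments accompany their opening for this recombination. Both loci also carry enhancers between the J segments and the constant genes and beyond the constant genes. The heavy chain intronic enhancer is known to be active in some T lineage cells as well, whereas the kappa locus is usually closed in T cells.

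The RefSeq gene table (GRCm38.p6) was used for names and order only. In it the heavy chain locus starts with the constant genes Igha, Ighe, Ighg2c, Ighg2b, Ighg1, Ighg3, Ighd and Ighm. It then runs through 4 J segments and 20 D segments, 10 of them pseudogenes, to 183 V segments, 63 of them pseudogenes. The kappa locus runs the other way along its chromosome, from 162 V segments, 60 of them pseudogenes, to 5 J segments and the single constant gene Igkc. The constant end is the low-coordinate side of the heavy chain window and the high-coordinate side of the kappa window. Fixed widths were used for it, the lowest 250 kb of the heavy chain window and the highest 50 kb of the kappa window, and the rest of each window is called the V part. An annotation of mm9 was not used here, so no bin is assigned to a segment or an enhancer.

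Sequencing gave 21845451 aligned H3KAc reads and 7626703 aligned IgG reads. Reads of the same strand and 5′ end were taken as 1 position, which left 19711169 positions for H3KAc (1.11 reads each) and 1897666 for IgG (4.02 reads each). These positions were moved 100 bp along their strand, and are given as positions per 1000000 in the library (RPM).

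Over the whole heavy chain window, the scaled H3KAc level was not above that of IgG. The window held 11611 H3KAc and 1183 IgG positions, which is 0.210 RPM per kb in H3KAc (95% Poisson interval 0.207 to 0.214) and 0.223 RPM per kb in IgG (0.210 to 0.236). The H3KAc over IgG ratio was 0.945 (exact binomial 95% interval 0.890 to 1.004). For comparison, the ratio was 1.002 over the other autosomal bins with a read. It was 0.874 (0.841 to 0.908) over the 1 Mb below the window and 1.12 (1.04 to 1.21) over the 1 Mb above it. Because levels are in RPM, a ratio near 1 is that of an average covered bin. Such a ratio does not show that acetylation was absent. The kappa window was lower in both libraries. It held 8372 H3KAc and 964 IgG positions, or 0.133 and 0.159 RPM per kb, a ratio of 0.836 (0.782 to 0.895). The kappa ratio depended on how repeated reads were treated, since it was 0.963 (0.927 to 1.002) when every deposited read was counted. A single bin, from 68711001 to 68712000, held 597 H3KAc reads at 17 positions, against 1 IgG read. Without this bin, singled out after its values were seen, the ratio over all reads was 0.904 (0.869 to 0.940). The heavy chain ratio over all reads was 0.938, with an interval of 0.907 to 0.970 that no longer held 1.

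Both windows were thinly covered next to the rest of the genome. Per kb with a read, H3KAc in the heavy chain window was 0.554 times the level of the other autosomal bins (0.544 to 0.564) and IgG was 0.587 times (0.554 to 0.621). In the kappa window the H3KAc level was 0.395 times that of the other autosomal bins (0.386 to 0.403) and the IgG level 0.473 times (0.444 to 0.504). The share of bins without a read in either library was 17.3% in the heavy chain window and 26.8% in the kappa window, against 11.3% over the other autosomal bins between the first and last covered bin of each chromosome. The longest run without a read was 9 kb in each window. V segments resemble one another in sequence, and reads that align to several places may have been dropped or placed at random by the aligner. The part of this in the low levels was not tested. In a bulk preparation, fewer cells carrying the mark and less of it in each cell cannot be told apart.

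**Figure D1:**
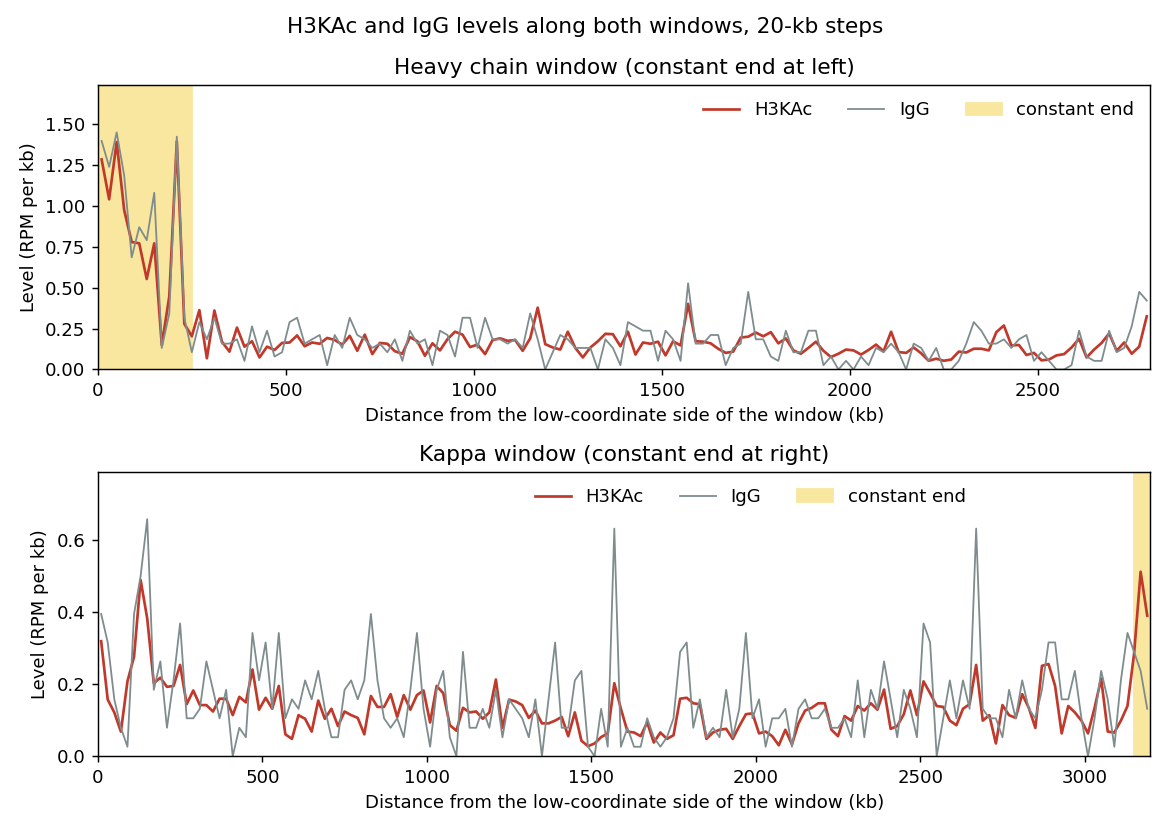
Levels of H3KAc (red) and IgG (grey) in RPM per kb, in 20-kb steps, against distance in kb from the low-coordinate side of the heavy chain window (top) and the kappa window (bottom), with the constant end shaded. Both libraries are raised together over the heavy chain constant end, whereas over the shaded 50 kb of the kappa window H3KAc is raised and IgG is not.

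The heavy chain locus had a constant end with many reads and a V part with few. The constant end had 0.797 RPM per kb in H3KAc (0.772 to 0.822) and 0.875 RPM per kb in IgG (0.793 to 0.963). The V part had 0.153 RPM per kb in H3KAc (0.149 to 0.156) and 0.159 RPM per kb in IgG (0.148 to 0.170). The constant end made up 8.93% of the window and held 33.8% of its H3KAc positions and 35.1% of its IgG positions.

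This step had nearly the same size with either antibody. The constant end was 5.21-fold higher than the V part in H3KAc (5.01 to 5.42) and 5.51-fold higher in IgG (4.88 to 6.22). The H3KAc over IgG ratio was 0.911 (0.823 to 1.01) at the constant end and 0.963 (0.894 to 1.04) in the V part. The first of these ratios was 0.946 times the second (exact interval 0.833 to 1.07), so the interval held 1. With every deposited read counted the factor was 0.907 (0.845 to 0.973), which puts the ratio at the constant end below that in the V part, with copies counted as independent. Bins without a read were 7.60% of the constant end and 18.2% of the V part. With such bins left out of the length, the step was 4.61-fold in H3KAc and 4.88-fold in IgG.

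In steps of 25 kb from the low-coordinate side, the H3KAc level was 1.18, 1.18 and 1.23 RPM per kb over the first 75 kb. It was 0.39 RPM per kb between 175 and 200 kb, 1.19 RPM per kb between 200 and 225 kb, and 0.25 RPM per kb over the next 25 kb. IgG followed with 1.26, 1.37 and 1.33 RPM per kb over the first 75 kb, then 0.38, 1.24 and 0.17 RPM per kb in those same later steps. The locus thus showed a broad high stretch next to its low-coordinate border and a separate narrow rise more than 200 kb inside, in both libraries. The border itself was not a drop from a quiet surrounding. The 1 Mb below the window had 1.34 RPM per kb in H3KAc and 1.54 RPM per kb in IgG, and the heavy chain window as a whole was at 0.156 times that H3KAc level (0.153 to 0.160).

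**Figure D2:**
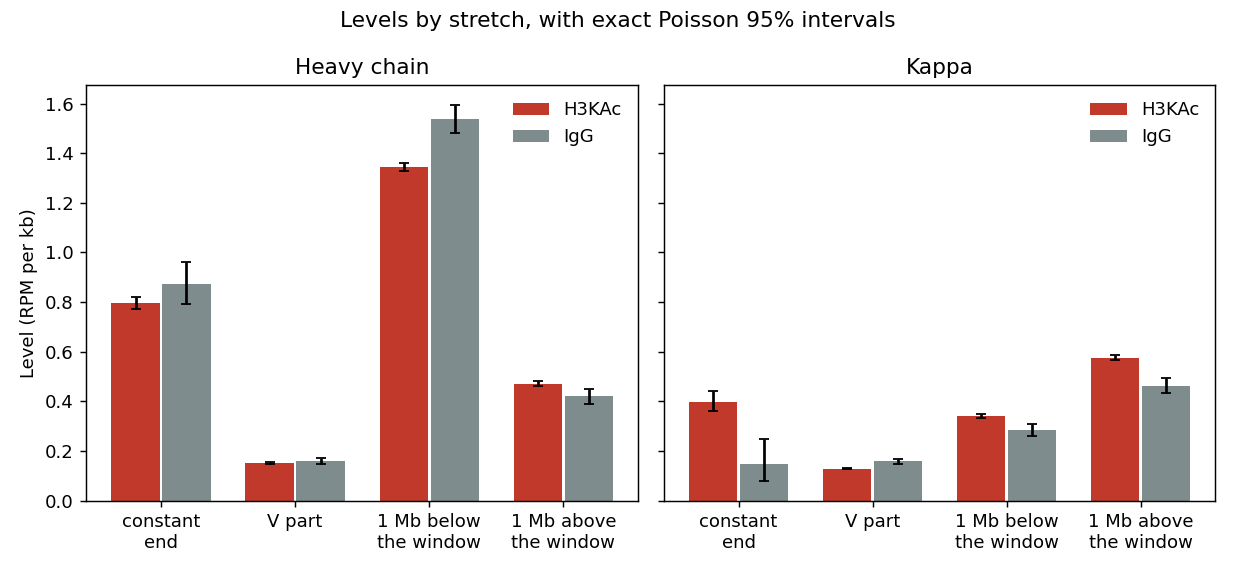
Levels in RPM per kb of H3KAc (red) and IgG (grey) in the constant end, the V part and the 1 Mb on either side of the heavy chain window (left) and the kappa window (right). Bars start at 0 and whiskers are exact Poisson 95% intervals, which overlap between the libraries at the heavy chain constant end and V part and are separate at the kappa constant end.

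The narrow rise was the highest point of either locus. It covered 2 kb of chromosome 12 from 114662001 to 114664000 and began 212 kb from the low-coordinate border. Its lower bin held 140 H3KAc positions (7.10 RPM, interval 5.97 to 8.38) and 15 IgG positions (7.90 RPM, 4.42 to 13.0). Its upper bin, from 114663001, held 113 H3KAc positions (5.73 RPM) and 11 IgG positions (5.80 RPM). Of all autosomal bins with a read, 0.0753% held as many H3KAc positions as the first of these and 0.0238% as many IgG positions. The rise was thus extreme in both libraries.

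Its height above its own surroundings was alike in both. Compared with the 18 kb around it (from 1 to 10 kb on each side), the 2-kb block was 9.04-fold higher in H3KAc (7.56 to 10.8) and 9.36-fold higher in IgG (5.19 to 16.9). The block was picked for its high H3KAc count, so a rise in H3KAc was built in. The intervals do not cover this choice. The H3KAc over IgG ratio was 0.937 (0.625 to 1.46) in the block and 0.970 (0.642 to 1.53) around it. Counting every deposited read gave 315 H3KAc and 85 IgG reads in the block and a ratio of 1.29 (1.02 to 1.66), with copies counted as independent.

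The block held more IgG than bins of like acetylation usually did. Among 1479 autosomal bins within 10% of 140 H3KAc positions, the median was 4 IgG positions and the 95th percentile was 10, and 3.31% had 15 or more. Among 2389 bins within 10% of 113 H3KAc positions, the median was 3 IgG positions and 3.98% had 11 or more.

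In these counts the libraries differed in how they spread over the block. In a span of 600 bp, from 400 bp below to 200 bp above the block centre, lay 105 of its 253 H3KAc positions (41.5%, exact binomial 95% interval 35.4% to 47.8%) and 20 of its 26 IgG positions (76.9%, 56.4% to 91.0%). This span was chosen after the profile had been seen, and it takes in the 200-bp steps of the block with the most IgG. A high IgG share was thus built in, and the intervals do not cover this choice. H3KAc positions extended over the full 2 kb, and most of the 26 IgG positions lay in the middle.

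**Figure D3:**
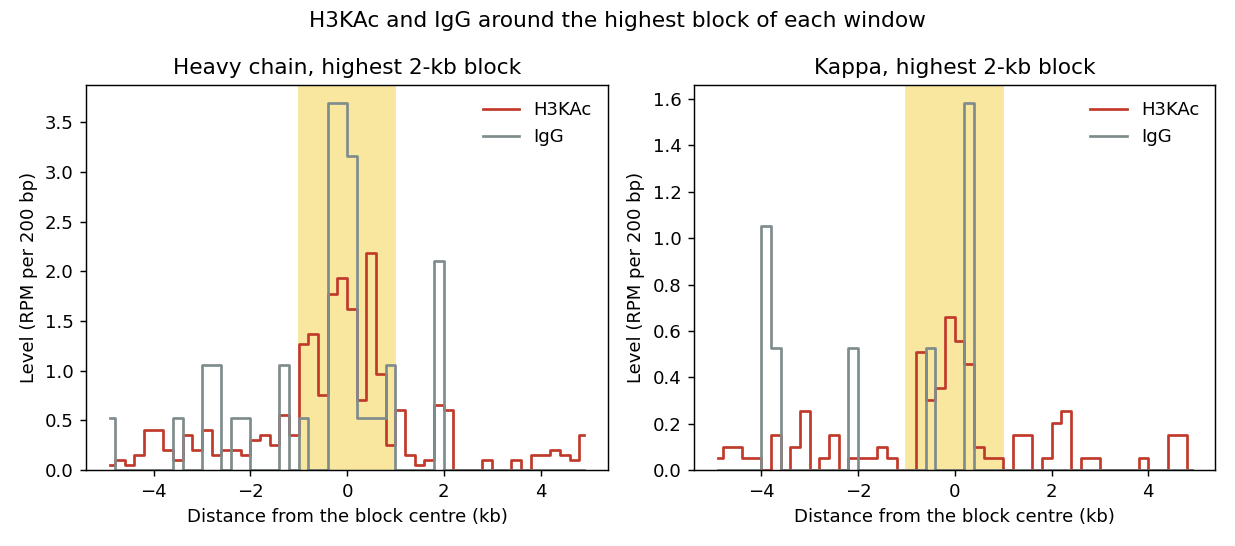
Levels in RPM per 200 bp of H3KAc (red) and IgG (grey), both strands together, within 5 kb of the centre of the highest 2-kb block (shaded) of the heavy chain window (left) and the kappa window (right). In the heavy chain block most of the 26 IgG positions lie near the centre and H3KAc fills the block. In the kappa block the IgG line rests on 4 positions.

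The rest of the heavy chain constant end had many bins with moderately high counts, in both libraries. Of the 10 bins with the most H3KAc positions in the window, 9 lay in the constant end. Apart from the 2-kb block these held 42 to 48 H3KAc positions, and they lay between 114458001 and 114534000. Bins at or above the 90th percentile of the other autosomal bins (19 H3KAc positions) made up 35.9% of the covered bins of the constant end and 0.288% of those of the V part, against 10.5% of the other autosomal bins. For IgG, the matching cut of 3 positions was reached by 29.4% of the covered bins of the constant end and 2.64% of those of the V part, against 11.1% elsewhere.

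Some bins of the constant end held no IgG position, as did 40.7% of its covered bins. From 114490001 to 114491000 lay 39 H3KAc positions and no IgG position, with a lower bound of the ratio of 0.970. Likewise the bin starting at 114468001 held 37 H3KAc positions and no IgG position, with a lower bound of 0.918. Their H3KAc levels were 1.98 and 1.88 RPM, and the exact Poisson interval of IgG reached 1.94 RPM in both. Neither lower bound of the ratio passed 1, so neither bin could be told from its scaled IgG level at this depth. Near them the bin starting at 114488001 held 43 H3KAc and 10 IgG positions (ratio 0.414, 0.205 to 0.924), and 37 of its H3KAc positions were on the plus strand and 6 on the minus strand. These bins lay within 25 kb of one another. They were named for a high lower bound or for high IgG, so they do not measure how background varies between bins.

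The heavy chain V part was low throughout. In 100-kb windows beyond those that hold the constant end, H3KAc had between 135 and 415 positions, with a median of 298 (0.151 RPM per kb). IgG had between 7 and 53 positions, with a median of 29 (0.153 RPM per kb). None of these 25 windows reached the median of 23556 autosomal windows outside both loci, which was 653 H3KAc positions. The 3 highest windows of the whole locus were the 3 that hold the constant end, with 2155, 1061 and 910 H3KAc positions. The 3 lowest, starting at 116650001, 116950001 and 116350001, had 135, 170 and 228. The V part was nonetheless uneven, and in 20-kb steps it ranged from 21 H3KAc positions to 158 in the step centred 1570 kb from the low-coordinate side, which held 20 IgG positions.

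The bin with the most H3KAc positions in the V part was that of chromosome 12 from 115617001 to 115618000. It held 70 H3KAc positions (3.55 RPM, 2.77 to 4.49) and 3 IgG positions, which put the ratio at 2.25 (0.738 to 11.2). The 6 bins within 3 kb of it held between 1 and 20 H3KAc positions, with a median of 4.5, and 2 IgG positions in all. Its H3KAc positions were uneven between the strands, with 48 plus and 22 minus. Bins of like H3KAc level had a median of 3 IgG positions, the number found here. Against IgG averaged over the 11 bins around it, the ratio was 14.8 (6.06 to 47.1).

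Over the highest 50 kb of the kappa window, acetylated H3 was raised without a matching rise in the background. The constant end had 0.399 RPM per kb in H3KAc (0.360 to 0.440) from 393 positions and 0.148 RPM per kb in IgG (0.0807 to 0.248) from 14 positions. The V part had 0.129 RPM per kb in H3KAc (0.126 to 0.131) and 0.159 RPM per kb in IgG (0.149 to 0.169). The constant end was 3.10-fold higher than the V part in H3KAc (2.80 to 3.43), whereas in IgG it was at 0.928 times the V part (0.506 to 1.57). Bins without a read were 2.00% of the kappa constant end and 27.2% of its V part. Leaving such bins out of the length gave 2.30-fold in H3KAc (2.08 to 2.55) and 0.690 times in IgG (0.376 to 1.16).

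The H3KAc over IgG ratio was accordingly 2.70 (1.59 to 4.99) at the kappa constant end and 0.809 (0.756 to 0.866) in the V part. The first was 3.34 times the second (exact interval 1.96 to 6.20). The matching factor in the heavy chain locus was 0.946, and the ratio at the heavy chain constant end was 0.337 times that at the kappa constant end (0.181 to 0.580). The kappa factor rested on 14 IgG positions and on the width chosen. With every deposited read counted the factor was 2.34 (1.80 to 3.07), with copies counted as independent. It was 4.23 (1.90 to 11.7) with the highest 30 kb and 1.44 (1.05 to 2.00) with the highest 100 kb. Over those 100 kb IgG was raised as well, at 1.55 times the V part (1.13 to 2.09), and H3KAc was 2.23-fold higher (2.04 to 2.43).

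In absolute terms the acetylation at the kappa constant end was ordinary. Per kb with a read, its H3KAc level was 0.886 times that of the other autosomal bins (0.800 to 0.978) and its IgG level 0.328 times (0.180 to 0.551). The 1 Mb above the kappa window had 0.575 RPM per kb in H3KAc and 0.463 RPM per kb in IgG, a ratio of 1.24 (1.16 to 1.33). In 10-kb steps over the last 50 kb, going up the chromosome, H3KAc held 37, 140, 62, 68 and 86 positions and IgG held 0, 8, 1, 0 and 5. In the 5 steps just before them H3KAc held 15, 24, 31, 24 and 75 positions and IgG held 1, 7, 10, 3 and 11. Within the constant end the step with the most H3KAc also had the most IgG, and 2 steps just outside it, with 10 and 11 IgG positions, were higher in IgG still.

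The highest kappa bin lay in the constant end, on the side of the J segments and the constant gene, and 3 of the 10 bins with the most H3KAc positions lay there. That from 70666001 to 70667000 held 36 H3KAc positions (1.83 RPM, 1.28 to 2.53) and 1 IgG position. The bin next to it, starting at 70667001, held 24 H3KAc and 3 IgG positions. Together they were 4.15-fold above the 18 kb around them in H3KAc (3.01 to 5.68) and 7.20-fold in IgG (1.43 to 33.5), the IgG value resting on 4 positions. This block too was picked for its high H3KAc count, so a rise in H3KAc was built in and the intervals do not cover the choice. With H3KAc thinned to the number of IgG positions, the H3KAc rise was 1.80-fold, with an interval from 0.192 to 8.45. The ratio over these 2 kb was 1.44 (0.536 to 5.47), so at this depth the block itself could not be told from its scaled IgG level. The bin from 70660001 to 70661000 held 29 H3KAc positions and no IgG position, with a lower bound of the ratio of 0.710. Of the covered bins of the kappa constant end, 83.7% held no IgG position.

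The kappa V part had the lowest H3KAc level per kb of either locus. Bins without a read made up 27.2% of it, against 18.2% of the heavy chain V part. Per kb with a read, the H3KAc levels of these V parts were closer, at 0.177 and 0.187 RPM. Excluding the window that holds the constant end, 31 windows of 100 kb held between 115 and 619 H3KAc positions, with a median of 236 (0.120 RPM per kb), and between 11 and 76 IgG positions, with a median of 30 (0.158 RPM per kb). None reached the median of the autosomal windows outside both loci, and 17 lay below their 10th percentile. The highest window, starting at 67600001 near the far V border, had 619 H3KAc and 76 IgG positions, for a ratio of 0.784 (0.617 to 1.01). The 3 lowest, starting at 69500001, 69100001 and 68900001, had 115, 127 and 141 H3KAc positions.

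Of the 10 kappa bins with the most H3KAc positions, 7 lay in the V part. They held 22 to 32 H3KAc positions, and 5 of them lay between 67502001 and 67645000. Highest among them was the bin starting at 67644001, with 32 H3KAc and 5 IgG positions. Adjoining bins starting at 67583001 and 67584001 held 24 and 16 H3KAc positions and 1 and 0 IgG positions. A lone bin starting at 68483001 held 23 H3KAc positions and no IgG position, and no bin within 3 kb of it held more than 4 H3KAc positions. Its lower bound of the ratio was 0.553, and 74.6% of the covered bins of the kappa V part held no IgG position.

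The V parts of the loci differed slightly in their ratio. H3KAc in the heavy chain V part was 1.19-fold the level in the kappa V part (1.15 to 1.23), whereas IgG was at 0.999 times (0.907 to 1.10). The H3KAc over IgG ratio in the heavy chain V part was 1.19 times that in the kappa V part (1.08 to 1.32). This difference did not hold with every deposited read counted, where the factor was 1.03 (0.976 to 1.10), and it was 1.11 (1.04 to 1.17) when the kappa bin with 597 H3KAc reads was also left out. Over the whole windows the order of the ratios turned with every read counted, with 0.938 for heavy chain and 0.963 for kappa.

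**Figure D4:**
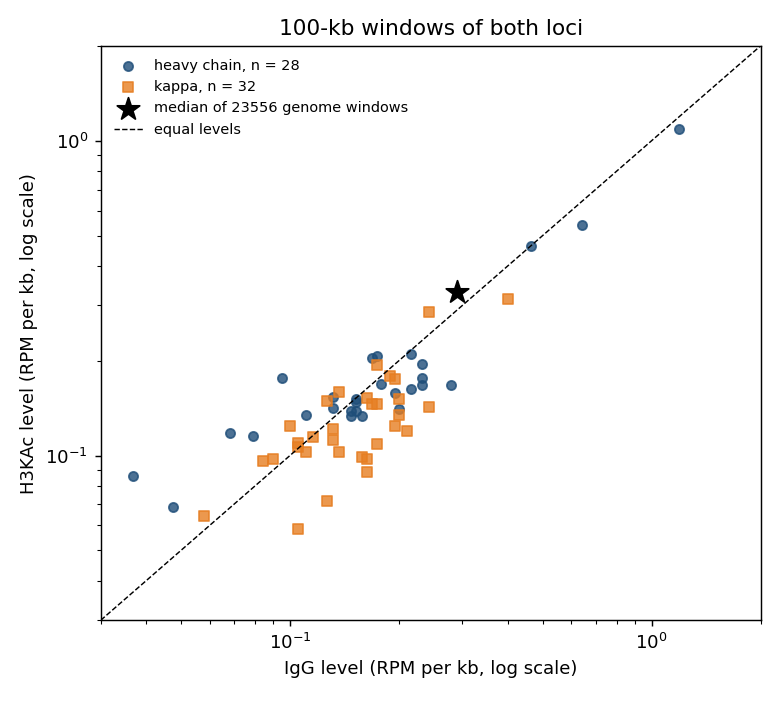
H3KAc against IgG level in RPM per kb, both on log scales, for the 28 heavy chain (circles) and 32 kappa (squares) windows of 100 kb. The dashed line marks equal levels and the star the median of 23556 autosomal windows outside both loci, and all but 3 windows, those of the heavy chain constant end, lie below the star in H3KAc.

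Window by window, H3KAc and IgG moved together. Over the 28 heavy chain windows, which share both libraries and their depths, Pearson's r was 0.982 and Spearman's rho 0.792, and without the 3 windows that hold the constant end these were 0.721 and 0.707. Over the 32 kappa windows they were 0.795 and 0.659. These are descriptions across sites of the same libraries, and mappability enters both axes.

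The interval of the H3KAc over IgG ratio lay below 1 in 1 of 28 heavy chain windows and in 10 of 32 kappa windows. In the autosomal windows outside both loci this share was 13.6%, and it was 6.51% among the 11573 of them with totals in the range of the kappa windows. The interval lay above 1 in 2 heavy chain windows and in none of the kappa windows, against 17.7% of the autosomal windows and 12.3% of those with totals in the range of the kappa windows. The 2 heavy chain windows started at 115750001 and 116950001 and had ratios of 1.86 (1.16 to 3.18) and 2.34 (1.11 to 5.90), the second from 7 IgG positions.

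No bin of either locus was called enriched, that is, with at least 5 positions in both libraries together and a lower bound of the ratio above 2. The background rate of such calls was 0.0524% of all covered bins, so few calls would be found in a stretch of 4658 covered bins at that rate. With a lower bound above 1, for which the background rate was 0.409%, again no bin was called. With every deposited read counted, 11 heavy chain bins (0.475% of covered bins) and 3 kappa bins (0.128%) were called at the first bound, below the 1.76% of all covered bins. Depth limits what these counts can show. A bin without an IgG position needed at least 79 H3KAc positions to be called at the first bound and 41 at the second, and the loci held 2 and 12 bins that deep.

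With IgG averaged over 11 bins, which covers more background reads, 16 bins of each window were called, or 0.691% of covered bins in the heavy chain window and 0.683% in the kappa window, below the 1.35% over all covered bins. At the kappa constant end 5 of 49 covered bins were called (10.2%), where IgG held 14 positions over the whole 50 kb. Its part in these calls was not tested. The called bins started at 70660001, 70666001, 70676001, 70685001 and 70688001. At the heavy chain constant end 3 of 231 covered bins were called (1.30%), which is near the background rate. Of the 13 called in the heavy chain V part and the 11 in the kappa V part, the highest in H3KAc were the bins starting at 115617001 and 67583001.

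Bins lower in H3KAc than in IgG (upper bound of the ratio below 0.5) were found only in the V parts, 3 in the heavy chain window (0.130% of covered bins) and 9 in the kappa window (0.384%), against a background of 0.395%. They held 0 to 12 H3KAc positions and 4 to 8 IgG positions each. The constant ends had only 231 and 49 covered bins, so few such bins would be found there at the background rate.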

How the data were processed

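The authors deposited 1 BED row per aligned single-end read, with position and strand, no normalization and placeholders of 0 in the score columns, per the file headers described in the series' readme. Reads are 35 bases long. Bowtie and mm9 are named in the submitters' processing notes. No source used here gives its version, filters or treatment of reads with several alignments.

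Repeated reads were reduced to 1 per position and strand. Positions were moved 100 bp along their strand, 0.5 of the 200 bp fragment length, and assigned to 1-kb bins. Ratios of RPM have exact conditional binomial (Clopper-Pearson) 95% intervals, ratios between ratios the exact conditional interval of an odds ratio, and levels exact Poisson intervals. Bins of each locus were named as the 10 with the most H3KAc positions, the 5 with the highest lower bound, the 3 with the most IgG positions and any enriched bin. Windows of 100 kb were named as the 3 highest and lowest, and autosomal windows were used with at least 50 covered bins. The loci, stretches and settings were chosen with earlier results of these data known. The calling was tested on simulated independent Poisson counts, which does not measure its power at the levels of these loci. Software was numpy 2.4.6 and pandas 2.3.3 for counting, scipy 1.17.1 for intervals and matplotlib 3.10.9 for figures, under Python 3.11.15. No sequence is shown, since none of mm9 was used here.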

Additional observations from a re-analysis of the deposited data

How the results depend on the processing

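Alternatives for the ratio between constant end and V part, for IgG alone, between the V parts and for the highest blocks were chosen after seeing the data. No ratio whose interval excluded 1 moved to the other side of 1. Of ratios whose interval held 1, the kappa constant end over V part in IgG, 0.928, was 1.55 with the highest 100 kb and 1.26 with all reads, the heavy chain block's H3KAc over IgG, 0.937, was 1.29 with all reads, and the kappa block's, 1.44, was 0.853 with all reads and 0.5 with thinned H3KAc. With all reads as deposited, the kappa ratio of 0.836 became 0.963 and the enriched bins became 11 in the heavy chain (0.475% of covered bins) and 3 in the kappa window (0.128%), in place of 0, against 1.76% of all covered bins under that setting. The ratio in the heavy chain V part over that in the kappa V part, 1.19, became 1.03. With IgG over 11 bins they became 16 and 16. In the heavy chain window they stayed at 0 with reads not moved, thinned H3KAc, background scaling, a lower bound above 1 and 500-bp bins. Between 1 and 12 bins were deep enough there to be called had they held no IgG position. In the main setting the 2 deepest held 15 and 11 IgG positions, so these counts of 0 say little about stability. With 1 strand or a lower bound above 4 no bin was that deep, and in the kappa window none was under any of these settings, so those counts of 0 say nothing about stability. The heavy chain constant end over V part in H3KAc, 5.21, was 4.91 with H3KAc thinned to the IgG number, 4.98 and 4.59 with a constant end of 200 and 300 kb, and 4.61 without bins that had no read. The kappa value, 3.10, was 2.63 with the plus strand, 3.60 with the minus strand, 2.54 with thinned H3KAc, 2.23 with the highest 100 kb and 2.30 without bins that had no read. The kappa factor in the H3KAc over IgG ratio, 3.34, was 1.44 with the highest 100 kb and 2.34 with all reads. A wider end takes in more of the V part, but what caused these shifts was not tested. The IgG depth limits every ratio of single bins. No paired analysis was possible because each antibody gave 1 library.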
